A study of Homo sapiens with 10 samples.

Results

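The genes described here are 40 genes of glycolysis, gluconeogenesis, the pentose phosphate pathway and the response to low oxygen, out of 61587 genes counted by bulk RNA-seq. They were chosen by symbol, with earlier results of these data known, and each of the 40 symbols matched 1 row of the count table. The cells were RPTEC/TERT1, an epithelial line from human renal proximal tubule that is kept dividing by introduced telomerase, and this 1 line was used throughout. The irradiated group (n = 5) received 10 Gy of gamma irradiation, and the control group (n = 5) was carried to the irradiator without being exposed. RNA was collected 7 days later from both groups, after the same medium changes, and no change of oxygen level is described for either. The study irradiated the cells to obtain senescent epithelium, and the comparison made here asks how the transcripts of glucose use and oxygen sensing differed between the groups. Each irradiated sample shares its number with a control sample, and the 5 numbers were treated as pairs. Nothing in the labels says that the numbered samples came from separate cultures, so the p-values measure the spread between these samples, which may be technical.

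Glycolysis converts glucose to pyruvate in the cytosol. Its upper steps spend ATP to make phosphorylated sugars and its lower steps return ATP. Pyruvate then either becomes lactate, which leaves the cell through monocarboxylate carriers, or enters mitochondria, where the pyruvate dehydrogenase kinases restrain its oxidation. Many of these genes are textbook targets of hypoxia-inducible factor (HIF), whose alpha subunits are marked for destruction by the oxygen-dependent prolyl hydroxylases encoded by the EGLN genes. The proximal tubule in the kidney is known for making glucose rather than burning it, whereas cultured tubule cells rely on glycolysis.

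Depth ran from 66269311 to 131555873 counts per sample. Levels are in CPM after TMM normalisation, in which counts are scaled to a common library size by edgeR's trimmed mean of M-values, and a gene was tested where it held at least 200 counts over the 10 samples. Fold changes, standard errors (SE) and adjusted p-values come from edgeR's quasi-likelihood test with the replicate number as a block and Benjamini-Hochberg adjustment over all 19006 genes tested, and a gene was called at an adjusted p under 0.05. Control sample 3 stood farthest from the other control samples (chi-square per gene of 102 to 187, against 13.1 to 88.7 among the others). Samples 4 and 5 were the closest in both groups (13.1 in control and 7.68 in irradiated samples), and how independent they are is not known. The summed CPM of 22 cell cycle genes was 510 and 490 in control samples 1 and 3 against 1270, 1323 and 1253 in control samples 2, 4 and 5, and lay between 283 and 374 in the irradiated samples. Of these 22 genes 19 were called lower. Without pairs 1 and 3, a choice made after seeing the data, 8 members were called higher and 21 lower, against 6 and 19 with all pairs. Of all 17388 genes tested without these pairs, 3995 were called higher and 4185 lower, against 4550 and 4307 of 19006 with all pairs. Without pair 3 alone the counts of members were 7 and 20, beside 4605 and 4047 of all 18345 genes tested. Mitochondrial genes held 7.78% to 10.7% of counts in control and 9% to 12.2% in irradiated samples, and their part in the results was not tested.

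The kidney epithelial genes PAX8, EPCAM and KRT8 were expressed in every sample at 253 to 1229 CPM. LRP2, SLC22A6 and HNF4A, which define the differentiated proximal tubule, did not exceed 0.0539 CPM in any sample, and SLC34A1 did not exceed 0.131 CPM. The summed CPM of 20 kidney epithelial markers (16 tested, 3 called higher and 4 lower) was 3583 to 3982 in control and 3814 to 5304 in irradiated samples. Fibroblast markers (2 of 8 tested, both called higher) summed to 15.9 to 23.5 CPM in control and 28.6 to 40.1 CPM in irradiated samples, endothelial markers (3 of 7 tested, 2 called higher) to 1.32 to 2.45 and 4.19 to 6.11 CPM, and blood cell markers (4 of 9 tested, 2 called higher) to 1.05 to 1.37 and 1.75 to 2.84 CPM. In bulk RNA, fewer cells of a type and less RNA per cell cannot be told apart, and the part of these markers in the results was not tested.

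In CPM, transcripts of 8 of the 9 upper glycolytic enzymes were lower in irradiated samples and that of the remaining 1, hexokinase 2, was higher. In lower glycolysis 5 of the 6 genes were not called. CPM are relative to the other RNA of a sample and do not give an amount per cell. Of the 40 genes, 37 were tested, 6 were called higher and 19 lower, and 12 were not called. The share called was 67.6% of the 37, where 46.6% of all genes tested were called, with 16.2% of the members higher (23.9% of all genes) and 51.4% lower (22.7% of all genes). The median log2 fold change of the 37 was -0.19 against -0.01 over all genes tested, and their median absolute log2 fold change was 0.32 against 0.23. The genes were chosen with earlier results of these data known, so these comparisons with all genes describe the set and test nothing. The changes were of modest size. TKT alone was called beyond 2-fold (9.31% of all genes tested were). The irradiated samples lay wholly above the control samples for 3 members, HK2, PKM and EGLN3 (14.6% of all genes tested did), and wholly below them for 10 (12% of all genes tested), together 13 of 37 where 26.7% of all genes did either. Of all genes called, 51.4% were higher, and 38% were when counts were scaled by library size only. Under that scaling 5 members were called higher and 22 lower, beside 3608 and 5894 of all 19006 genes tested. The 40 genes together held 1.57% to 1.86% of all counts in control and 1.48% to 1.65% in irradiated samples.

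**Figure D1:**
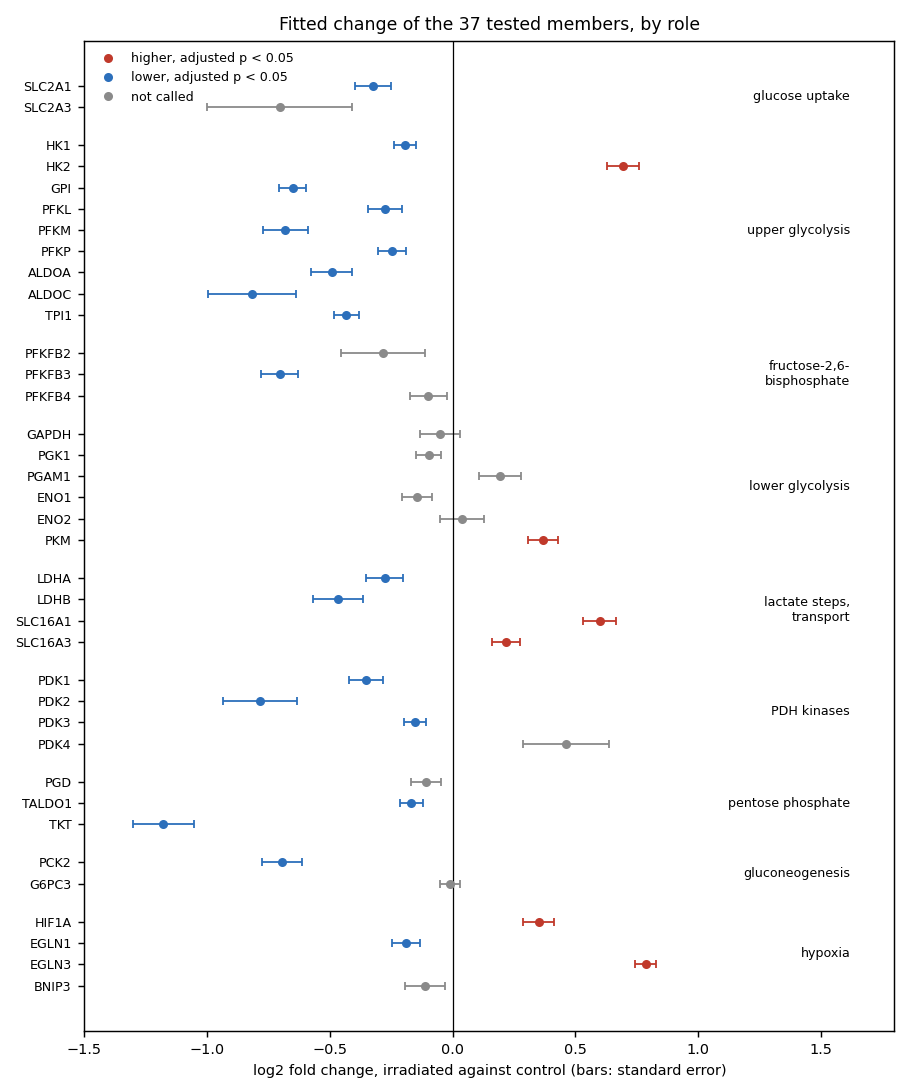
Fitted log2 fold change of the 37 tested members, irradiated against control, in the order of their roles, with bars of 1 standard error and colour for the call at an adjusted p under 0.05. All points of upper glycolysis except HK2 (0.70) lie left of 0, the lower glycolysis genes lie near 0 apart from PKM (0.37), and TKT (-1.18) and EGLN3 (0.79) mark the ends.

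Carriers of the SLC2A family let glucose into cells. SLC2A1, the basal carrier GLUT1, was at 395, 314, 573, 385 and 379.7 CPM in control samples 1 to 5 and at 335, 296, 381, 308 and 290.4 CPM in irradiated samples 1 to 5. It was lower in all 5 pairs (log2 fold change -0.32 ± 0.07, edgeR adjusted p = 0.00791), although the groups overlapped and control sample 3 stood above the rest. The call was lost without the replicate block (adjusted p from 0.000164 to 0.0773 over 15 alternatives, the highest without the block). SLC2A3, the high-affinity carrier GLUT3, was rare, at 1.04, 0.894, 4.26, 1.33 and 1.33 CPM in control and 0.615, 0.955, 1.06, 0.816 and 1.3 CPM in irradiated samples. Its log2 fold change of -0.71 ± 0.30 did not pass (edgeR adjusted p = 0.0865), and control sample 3 alone exceeded 2 CPM. It was called with DESeq2 and with a minimum of 1 count. Counts on 3 annotated SLC2A3 pseudogenes came to 10.5% of those on the gene.

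The 9 genes of upper glycolysis run from hexokinase to triose phosphate isomerase. All were called, 8 lower and 1 higher (22.7% and 23.9% of all genes tested were). The exception was HK2 (ENSG00000159399.10, chr2:74834127-74893359 of GRCh38, plus strand), the inducible hexokinase that sits on the mitochondrial surface. It was at 52.8, 51.7, 72.8, 63.2 and 62.3 CPM in control and 105, 79.9, 119, 95.7 and 92.2 CPM in irradiated samples 1 to 5. Each irradiated sample exceeded every control sample, with pair 1 the farthest apart (log2 fold change 0.70 ± 0.07, edgeR adjusted p = 0.000155). HK1, the constitutive hexokinase, was at 167, 168, 205, 189 and 179.9 CPM in control and 159, 152, 168, 159.9 and 153 CPM in irradiated samples. It was lower in all 5 pairs with overlapping groups (-0.19 ± 0.05, edgeR adjusted p = 0.0107), and the call was lost without replicate 4 or without replicate 5.

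GPI, which interconverts glucose 6-phosphate and fructose 6-phosphate, was at 440.3, 339, 463, 407 and 395 CPM in control and 282, 246, 267, 256 and 245 CPM in irradiated samples. The lowest control sample stood above the highest irradiated sample (log2 fold change -0.65 ± 0.06, edgeR adjusted p = 0.0001). The 3 phosphofructokinases, which carry out the committed step, all fell, but to different extents. PFKM, the muscle-type subunit, fell from 81.3, 81.9, 106, 71.2 and 76.6 CPM to 59.1, 61.2, 50.2, 43.1 and 46.1 CPM without overlap (-0.68 ± 0.09, edgeR adjusted p = 0.000808). PFKL, the liver-type subunit, went from 251, 199.5, 249.7, 201 and 201 CPM to 189, 192, 176, 180.1 and 168 CPM, with control samples 1 and 3 near 250 CPM and the other 3 near 200 CPM, just above the irradiated range (-0.28 ± 0.07, edgeR adjusted p = 0.0139). PFKP, the platelet-type subunit, fell by 0.25 ± 0.06 on the log2 scale with overlapping groups (means 340.1 ± 56.9 and 284 ± 26.4 CPM, SD, n = 5 each, edgeR adjusted p = 0.0096). Without pairs 1 and 3 the log2 fold change of PFKL was -0.17. The call of PFKL was lost without replicate 1 and that of PFKP without the replicate block.

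TPI1, which interconverts the 2 triose phosphates, was at 629, 479, 645, 592 and 577 CPM in control and 469.9, 394, 463, 424 and 407 CPM in irradiated samples, and every irradiated sample lay below every control sample (-0.43 ± 0.05, edgeR adjusted p = 0.000423). The aldolases split the 6-carbon sugar into those triose phosphates. ALDOA was at 26.9, 15.6, 18.7, 18.6 and 16.7 CPM in control and 15.3, 13.2, 13, 13.6 and 12.3 CPM in irradiated samples, with control sample 1 above all others and no overlap (-0.49 ± 0.08, edgeR adjusted p = 0.00221). Another annotated protein-coding gene on the same strand, which has no symbol, covers 42.8% of the ALDOA exons, and reads that fall on both genes cannot be assigned to either, so the level of ALDOA is uncertain. That gene itself held 1985 counts and had a log2 fold change of -0.81 (edgeR adjusted p = 0.0011). ALDOC, the brain-type aldolase, was barely expressed at 0.409 ± 0.047 CPM in control and 0.232 ± 0.042 CPM in irradiated samples (SD, n = 5 each), also without overlap (-0.82 ± 0.18, edgeR adjusted p = 0.00772).

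The PFKFB enzymes make and break fructose-2,6-bisphosphate, an activator of phosphofructokinase. PFKFB3 (ENSG00000170525.21, chr10:6144934-6254644 of GRCh38, plus strand), the form with the highest kinase activity, was by far the most abundant of the family per length of transcript in control samples (271 CPM per kb of canonical transcript, against 3.54 for PFKFB2 and 3.44 for PFKFB4). It was at 1448, 891, 1636, 1036 and 1073 CPM in control and 859, 656, 864, 681 and 618 CPM in irradiated samples. Control samples 1 and 3 were the highest, yet the lowest control sample still exceeded every irradiated sample (-0.70 ± 0.08, edgeR adjusted p = 0.000281). These were also the control samples with the lowest cell cycle sums, and without pairs 1 and 3 the log2 fold change was -0.63. PFKFB4 was at 17.1, 8.21, 11.5, 12.3 and 11.1 CPM and 13.3, 8.53, 11.3, 12.2 and 10.1 CPM, and PFKFB2 at 18.7, 23.6, 46.2, 17.6 and 19.3 CPM and 19.4, 20.2, 20.6, 18.7 and 16.9 CPM, in control and irradiated samples. Neither was called (edgeR adjusted p = 0.314 and 0.212), and PFKFB2 in control sample 3 was well above the other control samples.

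**Figure D2:**
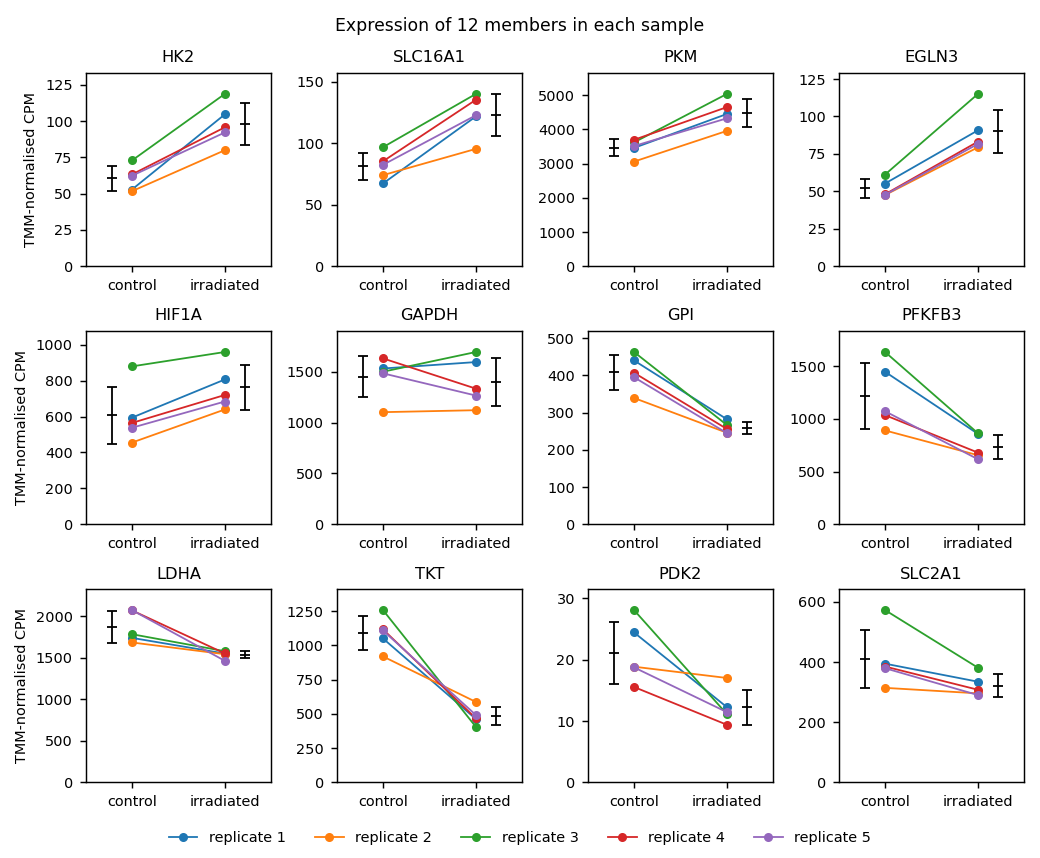
TMM-normalised CPM of 12 members in each control and irradiated sample, with a line joining the samples of each pair and a black bar for the mean ± SD of each group (n = 5). HK2, PKM and EGLN3 rise along every line with no overlap of the groups, GPI, PFKFB3, LDHA and TKT fall along every line with no overlap, and GAPDH rises in 3 pairs and falls in 2.

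In lower glycolysis, where ATP and NADH are recovered, 1 of 6 genes was called, where 46.6% of all genes tested were. GAPDH, the NADH-forming dehydrogenase often used as a reference gene, was at 1532, 1103, 1500, 1632 and 1485 CPM in control and 1595, 1122, 1694, 1334 and 1266 CPM in irradiated samples. The pairs moved in both directions and the 95% interval of its log2 fold change ran from -0.24 to 0.14 (-0.05 ± 0.08, edgeR adjusted p = 0.626). PGK1, the first ATP-forming kinase, had a log2 fold change of -0.10 (95% interval -0.22 to 0.02) and PGAM1, the mutase that follows it, one of 0.19 (95% interval -0.01 to 0.39), with edgeR adjusted p-values of 0.153 and 0.101. PGK1 was called lower with library size only. ENO1, the ubiquitous enolase, was at 3004, 2967, 3598, 3406 and 3306 CPM in control and 2998, 2644, 3218, 3028 and 2833 CPM in irradiated samples. It was lower in 5 of 5 pairs but by little (-0.14 ± 0.06, edgeR adjusted p = 0.0909), and it passed the threshold with DESeq2, limma-voom, upper-quartile scaling, library size only, a minimum of 1 count, and without pairs 1 and 3. ENO2, the neuronal enolase, was not called (0.04 ± 0.09, edgeR adjusted p = 0.746), its sign turned under library size scaling, and without pairs 1 and 3 it was called higher (log2 fold change 0.17).

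PKM (ENSG00000067225.20, chr15:72199029-72231819 of GRCh38, minus strand), pyruvate kinase, which makes the last ATP and pyruvate, was the 1 gene of lower glycolysis that rose. It was at 3458, 3058, 3618, 3694 and 3513 CPM in control and 4449, 3955, 5035, 4649 and 4322 CPM in irradiated samples. All irradiated samples stood above all control samples, and the 5 pairs differed by 0.30 to 0.48 on the log2 scale (fitted log2 fold change 0.37 ± 0.06, edgeR adjusted p = 0.00227). Counts per gene do not separate the splice forms of PKM. Per kb of canonical transcript the control samples held most transcript for ENO1 (1828 CPM per kb), PKM (1505), GAPDH (1129), LDHA (836) and TPI1 (433) among the 40 genes. The same 5 genes led when the length of all annotated exons was used, but PKM and GAPDH then changed places, so the order of those 2 levels is not settled. The places of ALDOA, LDHB and EGLN1 in this ranking are not known. Reads they share with an overlapping gene on the same strand cannot be assigned.

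Both lactate dehydrogenases among the members fell, while both monocarboxylate carriers among them rose. Other genes of these families that were tested in the further lists were not called. LDHA, the form that favours making lactate, was at 1742, 1687, 1786, 2073 and 2076 CPM in control and 1553, 1545, 1581, 1554 and 1466 CPM in irradiated samples. The groups did not overlap, and control samples 4 and 5 were the highest (-0.28 ± 0.07, edgeR adjusted p = 0.0179), but without replicate 4 or without replicate 5 the call was lost. LDHB, the form that favours using lactate, was at 14, 14.9, 17.8, 18.8 and 17.2 CPM in control and 11, 14.3, 11.9, 11 and 11.5 CPM in irradiated samples and lower in all 5 pairs, with irradiated sample 2 inside the control range (-0.47 ± 0.10, edgeR adjusted p = 0.00739). Another annotated gene on the same strand, with 24 counts of its own, covers 33.4% of the LDHB exons, which makes the level of LDHB uncertain.

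SLC16A1, the carrier MCT1, was at 67.2, 74, 96.7, 85.2 and 82.4 CPM in control and 122, 95.3, 139.9, 135 and 123 CPM in irradiated samples. It rose in all 5 pairs, and irradiated sample 2 alone lay within the control range (0.60 ± 0.07, edgeR adjusted p = 0.000362). SLC16A3, the lactate exporter MCT4, was at 421, 283, 375, 396 and 346 CPM in control and 461, 368, 460.1, 422 and 394 CPM in irradiated samples. It rose in all 5 pairs with overlapping groups (0.22 ± 0.06, edgeR adjusted p = 0.0144), and was not called with library size only (log2 fold change 0.14) or without the replicate block (adjusted p from 0.00358 to 0.145 over 15 alternatives).

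The pyruvate dehydrogenase kinases switch off entry of pyruvate carbon into the citric acid cycle. Of these 4 genes 3 were called lower, where 22.7% of all genes tested were. PDK2 fell the most, from 24.4, 18.9, 28.1, 15.6 and 18.7 CPM in control to 12.3, 17, 11.1, 9.4 and 11.5 CPM in irradiated samples. The fall was small in pair 2 and large in pairs 1 and 3, and irradiated sample 2 overlapped the control range (-0.78 ± 0.15, edgeR adjusted p = 0.00414). SAMD14 on the opposite strand covers 38.6% of the PDK2 exons and was lower too (log2 fold change -0.60, edgeR adjusted p = 0.0159), and without strand the reads of the 2 genes cannot be told apart. PDK1, a HIF target, was at 22.3, 11.1, 16.7, 21.2 and 19.2 CPM in control and 16, 10.4, 13.4, 15 and 15 CPM in irradiated samples (-0.35 ± 0.07, edgeR adjusted p = 0.00489). PDK3 changed least (-0.15 ± 0.05, edgeR adjusted p = 0.0256). Both were lower in all 5 pairs with overlapping groups, and both calls were lost without the replicate block (adjusted p up to 0.12 for PDK1 and 0.108 for PDK3 over 15 alternatives, from 0.000126 and 0.00425). The call of PDK3 was also lost without replicate 4 or 5 and with a minimum of 1 count. PDK4, the form raised by fasting, was at 8.65, 7.89, 20.2, 8.97 and 8.12 CPM in control and 19.6, 13.2, 18.8, 9.75 and 10.6 CPM in irradiated samples. Control sample 3 was as high as the irradiated samples, and PDK4 was not called with all 5 pairs (0.46 ± 0.17, edgeR adjusted p = 0.0623) but was called without pair 3, without pairs 1 and 3, with DESeq2 and with a minimum of 1 count.

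**Figure D3:**
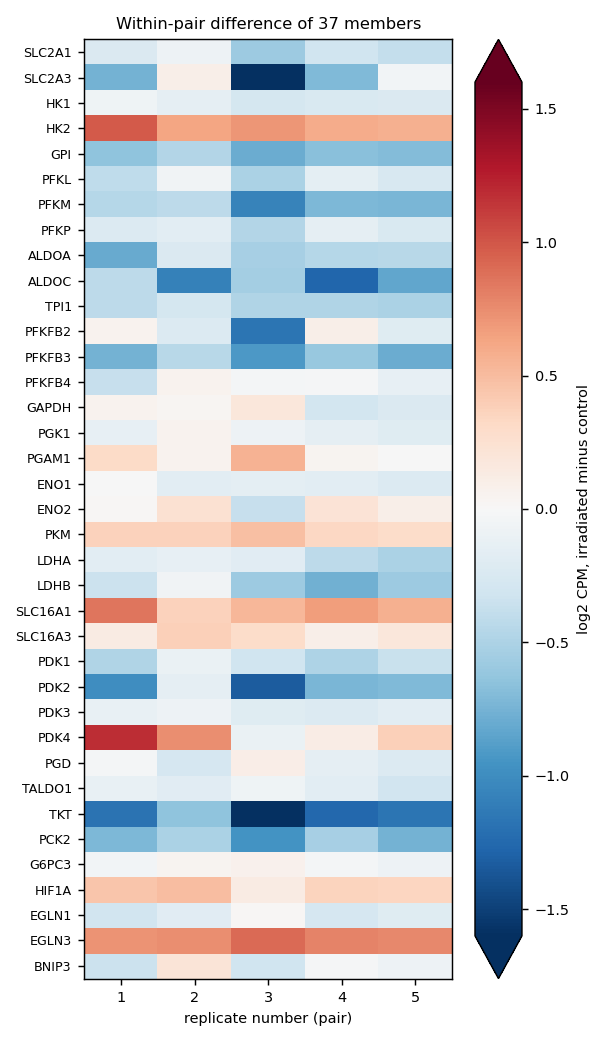
Difference in log2 CPM between the irradiated and the control sample of each of the 5 pairs for the 37 tested members, with red for higher and blue for lower in the irradiated sample and the colour scale ending at ±1.6. HK2, PKM, SLC16A1, SLC16A3, HIF1A and EGLN3 are red in all 5 pairs, most of upper glycolysis and TKT are blue in all 5, and pair 3 holds the deepest blue for SLC2A3, PFKFB2 and TKT.

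The pentose phosphate pathway supplies NADPH and ribose, and its non-oxidative arm returns carbon to glycolysis. TKT (ENSG00000163931.17, chr3:53224712-53256052 of GRCh38, minus strand), the transketolase of that arm, showed the largest fall of the 40 genes. It was at 1050, 919, 1257, 1117 and 1108 CPM in control and 463, 587, 405, 467 and 492 CPM in irradiated samples, which is 44.2% of the control level in the fit. Every irradiated sample was below every control sample, and pair 3 was the farthest apart and pair 2 the closest (-1.18 ± 0.12, edgeR adjusted p = 0.000256). TALDO1, transaldolase, fell by 0.17 ± 0.05 on the log2 scale in all 5 pairs with overlapping groups (means 226 ± 12.3 and 201 ± 13.5 CPM, SD, n = 5 each, edgeR adjusted p = 0.0204), and the call was lost without the block and without replicate 4 or 5. PGD, which forms NADPH in the oxidative arm, was at 202 ± 15.3 CPM in control and 187 ± 9.65 CPM in irradiated samples (SD, n = 5 each) and was not called with all pairs (-0.11 ± 0.06, edgeR adjusted p = 0.178) but was called lower without pair 3, without pairs 1 and 3 and with library size only.

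Of the 4 genes of glucose production, 2 were barely detected. FBP1, which reverses the phosphofructokinase step, held 2 counts in all 10 samples together, 1 in control sample 4 and 1 in irradiated sample 2. PCK1, the cytosolic phosphoenolpyruvate carboxykinase, held 30 counts, between 0 and 6 per sample. Neither reached the limit for testing. PCK2, the mitochondrial form, was at 12.7, 12, 15.7, 12.4 and 13.7 CPM in control and 7.72, 8.44, 8.12, 8.59 and 8.13 CPM in irradiated samples and fell without overlap (-0.69 ± 0.08, edgeR adjusted p = 0.000407). G6PC3, the glucose-6-phosphatase subunit found in most tissues, had 97.4 ± 8.67 CPM in control and 96.9 ± 10 CPM in irradiated samples (SD, n = 5 each). The fitted difference was -0.01 on the log2 scale with a 95% interval from -0.10 to 0.08 (edgeR adjusted p = 0.862). HDAC5 on the opposite strand covers 23.9% of the G6PC3 exons and had a log2 fold change of -0.91 (edgeR adjusted p = 0.0113).

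Among the genes of oxygen sensing, HIF1A and EGLN3 rose, EGLN1 fell and BNIP3 was not called. HIF1A, the alpha subunit whose protein is held down by oxygen, was at 594, 455, 879, 565 and 538 CPM in control and 806, 639, 959, 720.2 and 684 CPM in irradiated samples. All 5 pairs rose, while control sample 3 stood above 4 of the 5 irradiated samples (0.35 ± 0.06, edgeR adjusted p = 0.00298), and it was not called without the replicate block (adjusted p from 2.22e-06 to 0.145 over 15 alternatives). EGLN3 (ENSG00000129521.15, chr14:33924227-34462774 of GRCh38, minus strand), the prolyl hydroxylase PHD3 and itself a HIF target, was at 55.2, 47.6, 61.2, 48.1 and 47.7 CPM in control and 90.8, 79.4, 115, 83.2 and 81.7 CPM in irradiated samples. The 5 pairs differed by 0.72 to 0.91 on the log2 scale, the groups did not overlap, and its rise was the largest and its adjusted p the smallest of the 40 genes (0.79 ± 0.04, edgeR adjusted p = 2.3e-05). EGLN1, the main prolyl hydroxylase PHD2, was at 34.7, 25.8, 24.3, 29.1 and 26.9 CPM in control and 28, 22.7, 24.5, 24.2 and 23.4 CPM in irradiated samples. It was lower in 4 of 5 pairs (-0.19 ± 0.06, edgeR adjusted p = 0.0289), and the call was lost without replicate 1, 2, 4 or 5 and without the replicate block (adjusted p from 0.00512 to 0.138 over 15 alternatives). Another annotated gene on the same strand, with 2 counts of its own, covers 55.8% of its exons, which makes the level of EGLN1 uncertain.

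BNIP3, a mitophagy receptor and HIF target, was at 99.4, 54.3, 77, 75.1 and 76 CPM in control and 78.1, 62.6, 61.6, 74.2 and 71.9 CPM in irradiated samples. It was lower in 4 pairs and higher in pair 2, where the control sample was the lowest (-0.11 ± 0.08, edgeR adjusted p = 0.293). CA9, the carbonic anhydrase used as a marker of hypoxic tumours, held 19 counts over the 10 samples, with at most 4 in any 1 sample, and was not tested. ARHGEF39 on the opposite strand, with 2173 counts, covers 35.7% of the CA9 exons, so without strand even these few counts are uncertain.

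Because HIF is known to bind the letters ACGTG, the 250 bases before the RefSeq transcription start (GRCh38.p14) nearest to the 5′ end of the canonical GENCODE transcript were searched for ACGTG on both strands, that is ACGTG or CACGT as printed, with overlapping matches in the palindrome CACGTG counted on each strand. A window was at hand for 36 members and not for SLC2A3, SLC16A1, PFKFB2 and PCK1. For some members the nearest RefSeq start lay away from the canonical 5′ end. The distance was 3283 bases for PFKM, 1627 for PGAM1, 747 for GAPDH, 422 for PFKP, 217 for HK1 and 204 for GPI. Their windows are counted all the same. Of the 36 windows 18 held at least 1 match (50%), where 18.5% of all 35116 windows of the same length did. Many members are textbook HIF targets and were chosen by symbol, so this comparison describes the set and tests nothing. A match was present for 2 of 5 members called higher, 9 of 19 called lower, 6 of 10 not called and 1 of 2 under the limit for testing. Some members have several RefSeq starts, up to 7, and a match before another start of PFKM, PFKP and TPI1, all called lower, is not counted here. A match describes the letters only and says nothing of binding in these cells. Windows are shown for a member that rose (HK2), one that fell (LDHA), one not called (PGK1) and one hardly transcribed (CA9), all with matches in capitals, and for the members with the largest rise (EGLN3) and the largest fall (TKT), both without a match. They lie at chr2:74833877-74834126 (HK2, plus strand), chr11:18394313-18394562 (LDHA, plus strand), chrX:78103998-78104247 (PGK1, plus strand), chr9:35673678-35673927 (CA9, plus strand), chr14:33951075-33951324 (EGLN3, minus strand) and chr3:53256023-53256272 (TKT, minus strand), and are printed 5′ to 3′ along the gene.
HK2: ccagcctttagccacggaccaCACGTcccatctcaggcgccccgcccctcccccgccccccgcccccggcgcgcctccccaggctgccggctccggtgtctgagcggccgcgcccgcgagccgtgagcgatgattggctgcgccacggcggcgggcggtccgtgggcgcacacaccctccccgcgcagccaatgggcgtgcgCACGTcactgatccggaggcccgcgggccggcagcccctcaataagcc
LDHA: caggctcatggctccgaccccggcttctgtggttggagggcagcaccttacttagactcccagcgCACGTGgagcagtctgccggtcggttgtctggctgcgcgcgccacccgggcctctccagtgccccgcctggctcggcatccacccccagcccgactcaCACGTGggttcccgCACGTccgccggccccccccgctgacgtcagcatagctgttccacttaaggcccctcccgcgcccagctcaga
PGK1: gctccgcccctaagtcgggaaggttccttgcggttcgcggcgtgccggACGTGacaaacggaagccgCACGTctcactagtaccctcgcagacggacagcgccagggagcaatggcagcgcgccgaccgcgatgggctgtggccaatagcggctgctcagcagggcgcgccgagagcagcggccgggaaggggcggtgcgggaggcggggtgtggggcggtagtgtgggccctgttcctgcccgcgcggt
CA9: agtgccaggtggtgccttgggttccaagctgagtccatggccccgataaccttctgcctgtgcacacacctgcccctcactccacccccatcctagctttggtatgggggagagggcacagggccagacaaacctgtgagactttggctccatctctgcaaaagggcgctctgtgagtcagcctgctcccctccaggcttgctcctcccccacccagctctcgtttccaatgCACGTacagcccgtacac
EGLN3: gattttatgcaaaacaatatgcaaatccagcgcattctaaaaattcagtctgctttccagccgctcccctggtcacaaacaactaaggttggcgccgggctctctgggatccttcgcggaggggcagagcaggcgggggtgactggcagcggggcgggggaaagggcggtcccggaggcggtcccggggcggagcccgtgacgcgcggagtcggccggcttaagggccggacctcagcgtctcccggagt
TKT: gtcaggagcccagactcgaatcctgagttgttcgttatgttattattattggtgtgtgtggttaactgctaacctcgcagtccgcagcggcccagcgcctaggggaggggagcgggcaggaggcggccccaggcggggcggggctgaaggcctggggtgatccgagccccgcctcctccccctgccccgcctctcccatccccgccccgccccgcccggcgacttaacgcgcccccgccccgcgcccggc

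In HK2 the matches began 229 and 48 bases before the start, in PGK1 202 and 183 bases and in CA9 18 bases before it. LDHA held the most, 5 matches, of which 4 formed the palindrome at 2 places. HK2, which rose, and LDHA, which fell, both carried the letters, and both were picked for printing after the values were seen. The part of the letters in these changes was not tested.

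Ratios of 2 isozymes within a sample do not depend on library scaling. Of 15 ratios listed, 14 could be formed, since PCK1 was at 0 in 1 sample, and each was compared by a two-sided exact permutation test over the 10 samples with adjustment over the 14. The smallest p such a test allows with 5 against 5 samples is 0.00794. HK2 relative to HK1 rose 1.85-fold. The count ratio was 0.317, 0.308, 0.355, 0.335 and 0.347 in control samples 1 to 5 and 0.658, 0.526, 0.705, 0.599 and 0.603 in irradiated samples 1 to 5 (exact p = 0.00794, adjusted p = 0.0278). EGLN3 relative to EGLN1 rose 1.96-fold, from ratios of 1.59, 1.85, 2.52, 1.65 and 1.78 in control to 3.24, 3.50, 4.69, 3.44 and 3.48 in irradiated samples (exact p = 0.00794, adjusted p = 0.0278). In both ratios all irradiated samples stood above all control samples. The gene that overlaps the EGLN1 exons makes the level of EGLN3 relative to EGLN1 uncertain.

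PFKM relative to PFKL was 0.755 times its control value after irradiation and PFKFB4 relative to PFKFB3 1.52 times, each without overlap and with the same smallest p. SLC16A3 relative to SLC16A1 was 0.768 times its control value (exact p = 0.0159, adjusted p = 0.0444), with overlapping groups and almost no difference in pair 2. MCT4 and MCT1 transcripts both rose, and the fitted rise of MCT1 was the larger. The other 9 ratios did not pass, among them PFKP/PFKL (1.02 times, exact p = 0.762), LDHB/LDHA (0.878 times, exact p = 0.0714) and PDK4/PDK1 (1.76 times, exact p = 0.0873). This test does not use the pairs. Within pairs, PDK4/PDK1 and PDK3/PDK1 (1.15 times) were higher after irradiation in 5 of 5 and PDK2/PDK1 (0.741 times) was lower in 5 of 5, each with an exact two-sided sign-flip p of 0.0625, unadjusted, which is the smallest that 5 pairs allow. The exon overlaps of LDHB and PDK2 make the levels of their ratios uncertain too.

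**Figure D4:**
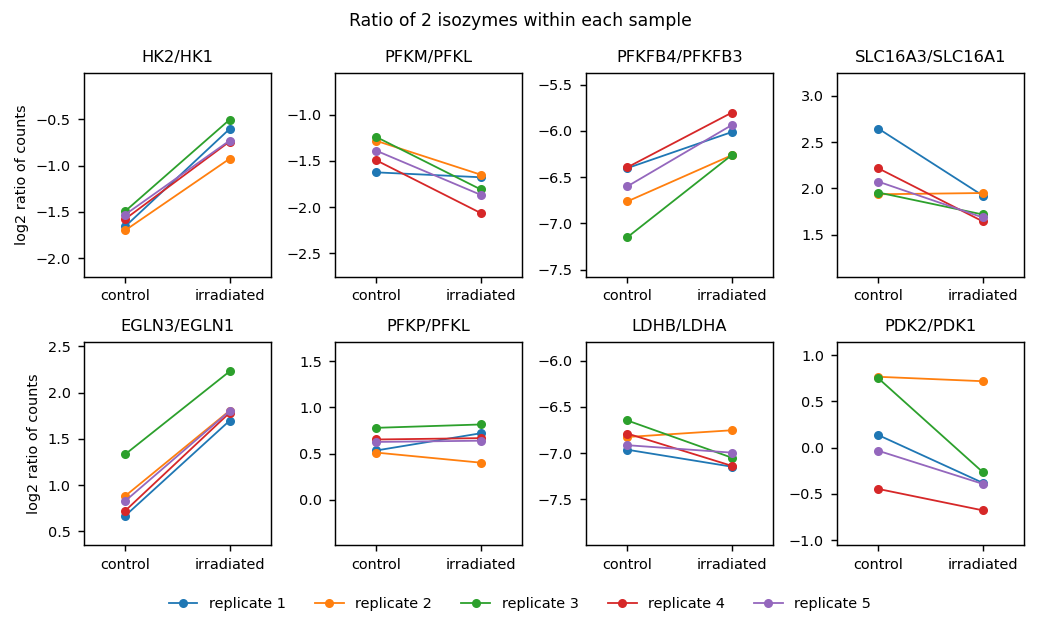
Log2 ratio of the counts of 2 isozymes within each sample for 8 of the 14 ratios, with a line joining the samples of each pair and a panel-specific vertical axis. HK2/HK1, PFKFB4/PFKFB3 and EGLN3/EGLN1 rise in all 5 pairs without overlap (mean differences 0.89, 0.61 and 0.97), PFKM/PFKL falls in all 5 (-0.41), and PFKP/PFKL differs by 0.03.

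The rest of the pathway was followed through 123 further genes in 4 lists. Of 49 other genes of glycolysis, gluconeogenesis and the pentose phosphate pathway 31 were tested, and 6 were called higher and 7 lower (median log2 fold change -0.03). These are 19.4% higher and 22.6% lower, where 23.9% and 22.7% of all genes tested were, so the counts set nothing apart in this list. TIGAR, a p53-induced fructose bisphosphatase, rose from 13.3 to 15.8 CPM in control to 32.8 to 39.5 CPM in irradiated samples (log2 fold change 1.36 ± 0.05, edgeR adjusted p = 8.6e-06). SLC2A6, another sugar carrier, rose from 12.5 to 20.3 CPM to 43.8 to 64.1 CPM (1.71 ± 0.15), and the rare hexokinase HK3 from 0.11 to 0.362 CPM to 0.806 to 1.34 CPM (2.09 ± 0.17). The carrier SLC2A12 fell from 6.78 to 10.8 CPM in control to 2.61 to 3.82 CPM in irradiated samples (-1.38 ± 0.10, edgeR adjusted p = 5.6e-05). Galactose mutarotase GALM (-0.57 ± 0.10) and SLC37A4, the glucose 6-phosphate carrier of the endoplasmic reticulum (-0.36 ± 0.06), were the next largest falls, the former without overlap and the latter with overlapping groups.

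Of 11 genes of pyruvate entry into mitochondria 10 were tested, 7 were called lower and 3 were not called (median log2 fold change -0.25 against -0.01 over all genes tested). Lower calls were made for 22.7% of all genes tested. MPC1, a subunit of the mitochondrial pyruvate carrier, fell from 19.8 to 37.3 CPM in control to 12.3 to 17.2 CPM in irradiated samples (-0.86 ± 0.11, edgeR adjusted p = 0.00076). PDHA1, the catalytic subunit of pyruvate dehydrogenase that the PDK enzymes phosphorylate, fell from 124 to 171 CPM to 80.9 to 94.1 CPM (-0.68 ± 0.07), and MPC2, the other carrier subunit, from 47.7 to 55.7 CPM to 39.9 to 43.8 CPM (-0.31 ± 0.05). In all 3 genes the groups did not overlap.

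Of 19 regulators of the HIF and carbohydrate response pathways 18 were tested, with 6 called higher and 5 lower (median log2 fold change -0.03). The shares of 33.3% and 27.8% lie not far from the 23.9% and 22.7% of all genes tested. CITED4, which competes with HIF for its coactivator, rose from 57.3 to 77.3 CPM in control to 177 to 261 CPM in irradiated samples (1.66 ± 0.12, edgeR adjusted p = 4.7e-05), while its relative CITED2 fell (-0.48 ± 0.09). EPAS1, the second HIF alpha subunit, rose with overlapping groups (0.43 ± 0.09), as did the glucose-responsive TXNIP (0.22 ± 0.08, edgeR adjusted p = 0.0458). ARNT2, a partner of the alpha subunits, fell (-0.64 ± 0.08), and so did MLXIPL, the glucose-sensing factor ChREBP, which was below 1.4 CPM throughout (-1.19 ± 0.25).

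Of 44 other HIF target genes 43 were tested, and 14 were called higher and 9 lower (median log2 fold change 0.04). That is 32.6% higher and 20.9% lower, near the 23.9% and 22.7% of all genes tested, which were likewise called in both directions. VEGFA, the angiogenic growth factor, was at 1025, 553, 840, 777 and 725 CPM in control samples 1 to 5 and at 351, 460, 268, 328 and 335 CPM in irradiated samples 1 to 5 (-1.17 ± 0.18, edgeR adjusted p = 0.0017). ADM, adrenomedullin, fell by 1.08 ± 0.32 on the log2 scale, with overlapping groups and pair 2 moving the other way, and the transcriptional repressor BHLHE40 fell by 1.03 ± 0.13. In contrast CA12, a carbonic anhydrase of the same kind as CA9, rose from 0.159 to 0.643 CPM to 1.8 to 4.02 CPM (2.63 ± 0.19), the chemokine receptor CXCR4 from 0.724 to 2.88 CPM to 3.15 to 16.9 CPM (2.52 ± 0.20), and the secreted glycoprotein STC2 from 0.183 to 0.468 CPM to 0.555 to 2.66 CPM (2.19 ± 0.25). These 3 genes, named for the size of their fold change, were of low abundance, and the other 11 called higher are not described singly.

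**Figure D5:**
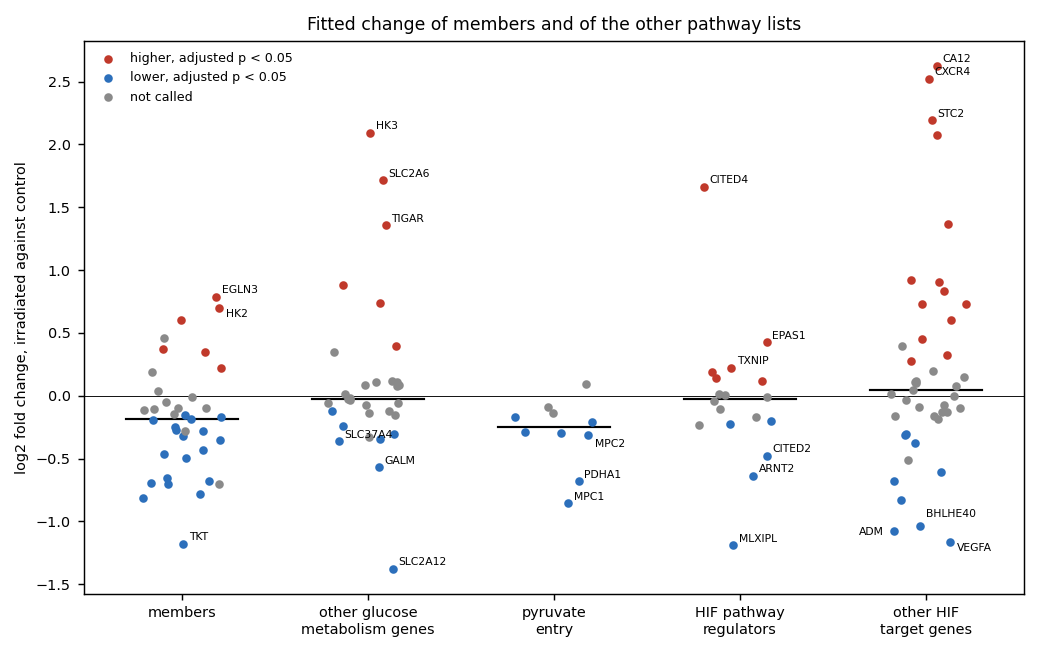
Fitted log2 fold change of each tested gene in the 40-gene set and the 4 further lists, irradiated against control, with a black line at each median and colour for the call at an adjusted p under 0.05. The medians lie between -0.25 (pyruvate entry) and 0.04 (other HIF targets), and the widest spread is that of the HIF targets, from -1.17 (VEGFA) to 2.63 (CA12).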

How the data were processed

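Bulk RNA-seq gene counts were analysed for 5 irradiated and 5 control samples of RPTEC/TERT1 cells, grouped and numbered by their titles. The authors trimmed adapters, used STAR for alignment to GRCh38 and for counting on GENCODE genes, and the deposited values are raw counts. The submitters' notes also name DESeq2, which did not alter the counts. The annotation release and the strand setting of the counting are not given in the sources used here. Depth was 66269311 to 131555873 counts per sample, with TMM factors of 0.915 to 1.06. At this depth the spread between replicates limits precision, except for genes near 200 counts.

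Counts were tested in R 4.3.3 with edgeR 4.0.16 (TMM, glmQLFit, glmQLFTest, replicate number as block, at least 200 counts over the 10 samples), with Benjamini-Hochberg adjustment over 19006 genes and a threshold of 0.05. The filter and block follow the study's methods. Standard errors were derived from each fold change and its F statistic. Replicate numbers were taken as pairs because deviations from the group means correlated in each of the 5 numbers (0.217 to 0.508, against -0.354 to 0.317 for different numbers). Between samples numbered 4 and 5 the correlations across groups were 0.295 and 0.317, above the 0.217 of pair 2. No replicates of a group were merged, since their counts lay farther apart than sampling noise (7.68 to 187 chi-square units per gene). Samples 4 and 5 lay closest in both groups, so they may carry less independent information than the p-values assume. The edgeR test was tested on simulated data for this comparison over 18867 genes. It recovered 78% of 1.5-fold, 96% of 2-fold, 100% of 4-fold and 93.6% of 0.5-fold changes, with 8 false calls. Only 50 genes were changed at each fold, whereas 8857 genes were called in the data. The simulated samples held no outlying sample, and changes smaller than 1.5-fold were not simulated. These rates therefore show that the test runs correctly and do not measure its error in these data.

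Isozyme ratios were compared with exact permutation tests in Python 3.11.15 with scipy 1.17.1, and figures were drawn with matplotlib 3.10.9. Exon overlaps and coordinates come from the GENCODE annotation of GRCh38, and promoter windows from RefSeq (GRCh38.p14). Levels are compared between genes per kb of canonical transcript.

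The 40 members and the further gene lists were chosen with earlier results of these data known, and the lists support no finding. Named genes are all 40 members and, from each further pathway list, up to 3 called genes with the largest fitted rise and up to 3 with the largest fitted fall. HDAC5, SAMD14 and ARHGEF39 were named for their exon overlap. The promoters printed were chosen after the values were seen. Of the further lists, 1 gene is not reported here.

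Alternatives were DESeq2 1.42.0, limma-voom (limma 3.58.1), upper-quartile and RLE normalisation, filterByExpr or a minimum of 1 count, library size only, no replicate block, each replicate pair left out, and pseudogene counts added to their parents. Leaving out pairs 1 and 3 together was added after seeing the data.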

Additional observations from a re-analysis of the deposited data

Results flagged for a closer look

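In 102 groups of 5 samples (37 members in each group and 14 isozyme ratios in each group), 7 held a sample set apart from the other 4 by Dixon's test at the 95% level, where chance gives about 5.1. Of these, 4 were control sample 3. SLC2A3 was at 4.26 CPM there against 0.894 to 1.33 CPM in the other control samples, PFKFB2 at 46.2 CPM against 17.6 to 23.6 CPM, and PDK4 at 20.2 CPM against 7.89 to 8.97 CPM. The log2 ratio SLC2A3/SLC2A1 was -7.07 in control sample 3 against -8.57 to -8.15. ALDOA in control sample 1 was at 26.9 CPM against 15.6 to 18.7 CPM, and GAPDH in control sample 2 was at 1103 CPM against 1485 to 1632 CPM. The log2 ratio EGLN3/EGLN1 was 2.23 in irradiated sample 3 against 1.70 to 1.81 in the other irradiated samples.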

How the results depend on the processing

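Over 15 alternatives all 25 called members kept their direction, and 14 of them kept their call under each one. The number of genes called was 6529 to 8652 when 1 replicate pair was left out, and 7006 with no replicate block. With no replicate block, 4 members were called higher and 13 lower, where 3640 and 3366 of all 19006 genes tested were. Without the block SLC2A1, PFKP, SLC16A3, PDK1, PDK3, TALDO1, HIF1A and EGLN1 were not called. When 1 pair was left out 6 to 7 members were called higher and 14 to 20 lower. Of the 18198 to 18345 genes tested then, 3557 to 4605 were called higher and 2943 to 4047 lower. Of the 12 uncalled members 6 were called under at least 1 alternative. Signs turned for small differences only. ENO2 had a log2 fold change of -0.038 with library size only and from -0.0056 to 0.15 without 1 pair, GAPDH from -0.10 to 0.0087 and G6PC3 from -0.023 to 0.016 without 1 pair, and BNIP3 0.019 without replicates 1 and 3. The difference in the log2 ratio PFKP/PFKL ran from -0.011 to 0.062 without 1 pair. For these the cause was not tested. With the replicate block as within-pair sign flips the smallest p is 0.0625, and with 4 against 4 samples the adjusted ratio tests passed for none of the 14, so those tests say nothing about the stability of the ratios. Members under 200 counts (FBP1, PCK1 and CA9) were left out of the test by the count limit, so whether they differed is not known.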
